A study of Mus musculus with 8 samples.

Results

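The genes described here are 9 that carry or control the movement of lymphocytes between tissues and blood. They are the sphingosine 1-phosphate (S1P) receptor S1pr1, the transcription factor Klf2, and the chemokine receptors Ccr2, Ccr7, Ccr9, Cxcr3, Cxcr4, Cxcr6 and Cx3cr1. Members were chosen by symbol, and a gene was measured only through probe sets annotated to that single symbol. Of the 9 genes, 7 had such a probe set, out of 17097 genes with one in the whole series, and all 7 were among the 11583 genes tested. Ccr7 and Cxcr4 were not analysed here.

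The study asked where in natural killer (NK) cell development the transcription factor Nfil3 is needed, and measured RNA on 8 one-colour Affymetrix arrays. ALP (all-lymphoid progenitors) and preproNK (prepro NK cells, a later progenitor) were sorted from lineage-depleted bone marrow and lysed without culture. The 4 groups were wild type (WT) ALP, Nfil3 knockout (KO) ALP, WT preproNK and KO preproNK, with 2 arrays each, and mice of both genotypes carried the Id2-GFP reporter. Replicates 1 and 2 were processed on 2 dates, so arrays of 1 replicate number share a date. The replicates also differed in the sex-linked genes Xist and Eif2s3y, whose values are given with the processing. The labels give neither the age of the mice, nor the number per array, nor whether the deletion of Nfil3 was confined to some cells. The p-values measure the spread between these samples, part of which may be technical.

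Lymphocytes leave tissues by following S1P, which is abundant in blood and lymph and scarce inside tissues. S1pr1 senses that gradient, and Klf2 is known in T cells to drive transcription of S1pr1, so that cells with little Klf2 stay in the tissue. Chemokine receptors are also coupled to inhibitory G proteins and steer the cell toward the source of their ligand: Ccr2 takes monocytes out of the marrow along Ccl2, Ccr9 guides cells to the Ccl25 of thymus and gut, Cxcr3 follows Cxcl9 and Cxcl10 to inflamed tissue, Cxcr6 follows Cxcl16, and Cx3cr1 binds fractalkine (Cx3cl1). Cxcr3 is a known target of the T-box factor Tbx21 in T and NK cells.

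Promoters are shown for the regulator Klf2, for Cx3cr1, whose levels ran opposite to most of the others, and for Cxcr6 and Ccr9, close neighbours on chromosome 9 with different patterns. RefSeq promoter entries were found for 6 of the 7 measured genes, and S1pr1 was without one. Each sequence is the 250 bases before the gene's start on the gene's own strand, build GRCm38.p6. Capitals mark matches, on either strand, to the KLF letters CACCC or the MEF2 letters CTANNNNTAG. The windows are chr8:72318812-72319061 (plus strand) for Klf2, chr9:120068297-120068546 (minus strand) for Cx3cr1, chr9:123806227-123806476 (plus strand) for Cxcr6 and chr9:123766961-123767210 (plus strand) for Ccr9.
Klf2: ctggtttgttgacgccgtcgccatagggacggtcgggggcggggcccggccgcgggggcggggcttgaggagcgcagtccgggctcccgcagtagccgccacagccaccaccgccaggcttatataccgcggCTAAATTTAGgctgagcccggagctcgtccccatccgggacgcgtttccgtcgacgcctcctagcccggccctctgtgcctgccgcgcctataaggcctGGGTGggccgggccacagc
Cx3cr1: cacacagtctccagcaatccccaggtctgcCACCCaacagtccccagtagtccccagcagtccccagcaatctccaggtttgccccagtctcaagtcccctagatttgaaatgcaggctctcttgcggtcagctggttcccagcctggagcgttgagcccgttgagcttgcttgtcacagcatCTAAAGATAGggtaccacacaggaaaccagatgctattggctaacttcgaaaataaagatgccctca
Cxcr6: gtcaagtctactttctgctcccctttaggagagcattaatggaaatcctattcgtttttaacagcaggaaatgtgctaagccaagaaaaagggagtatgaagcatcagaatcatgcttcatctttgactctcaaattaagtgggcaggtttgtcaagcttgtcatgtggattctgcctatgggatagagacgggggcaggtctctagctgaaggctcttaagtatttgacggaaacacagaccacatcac
Ccr9: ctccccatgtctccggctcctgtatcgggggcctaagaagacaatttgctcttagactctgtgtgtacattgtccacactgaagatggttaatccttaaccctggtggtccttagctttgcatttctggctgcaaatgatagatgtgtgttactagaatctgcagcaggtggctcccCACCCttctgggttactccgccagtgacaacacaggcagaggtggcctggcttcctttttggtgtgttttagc

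MEF2 proteins are transcription factors known to switch on Klf2 downstream of the kinase Mapk7. The MEF2 letters, searched with any base at each N, occurred in 2 of the 6 windows, against 3.20% of 32851 windows of the same length. They were CTAAATTTAG starting 118 bases before the start of Klf2 and CTAAAGATAG starting 67 bases before the start of Cx3cr1. The bases at N were all A or T in Klf2, while those in Cx3cr1 included a G. The KLF letters occurred in 3 of the 6, Klf2, Ccr9 and Cx3cr1, against 52% of all windows. The T-box letters GGTGTGA (3.33% of windows) and the NFIL3 letters TTANGTAA (2.06%) were searched on both strands and had no match in the 6. A match is only a run of letters, and its absence says nothing about a factor.

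Values are the authors' log2 expression values, and a difference of 1 is a change of 2-fold. The median over all probe sets lay between 3.93 and 4.27 on the 8 arrays, and a gene below it was taken as near background. Nfil3, the deleted gene, measured 6.89 and 5.50 in WT ALP, 3.41 and 4.15 in KO ALP, 4.75 and 4.74 in WT preproNK, and 3.84 and 3.57 in KO preproNK (replicates 1 and 2, in that order throughout). In both populations the knockout arrays were the lower ones. Flt3 and Dntt, genes of early lymphoid progenitors, lay between 8.10 and 10.87 in ALP and between 3.79 and 4.76 in preproNK, while Id2, Il2rb and Tbx21 of the NK lineage were higher in preproNK on all arrays. The NK marker Cd244a went the other way, falling by 1.98 from ALP to preproNK on average over the genotypes (limma, adjusted p 0.0200). Nkg7, Prf1 and Klrd1 had negative steps in WT (-0.43, -0.32 and -0.13) that did not pass the test. In KO their means rose, from 7.59 to 9.13, 7.71 to 8.49 and 3.41 to 4.95. On the WT replicate 1 arrays Prf1 rose from 7.68 in ALP to 8.39 in preproNK. Nkg7 (8.15 to 7.41) and Klrd1 (3.48 to 3.36) fell on those arrays. Ncr1, a receptor of mature NK cells, was below the array median on all 8 arrays. The WT preproNK replicate 2 array stood apart, with an SD over all probe sets of 1.39 against 1.55 to 1.88 on the others and 310 tested genes at 8 or more against 682 to 1498, so the members' knockout differences in preproNK and their steps from ALP to preproNK in WT are also given without it. For Ccr6, Ccr4, S1pr4, Tbx21 and the T cell and NK markers the knockout difference of the replicate 1 pair, which does not use it, is given.

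S1pr1, Cxcr3, Klf2, Ccr2 and Cxcr6 shared one order of group means: low in ALP of both genotypes, intermediate in WT preproNK and highest in KO preproNK. S1pr1 measured 3.73 and 3.42 in WT ALP, 3.63 and 3.69 in KO ALP, 5.83 and 5.34 in WT preproNK, and 8.35 and 8.33 in KO preproNK. Its 4 ALP values were all below the array medians, and neither the preproNK groups nor the populations overlapped. In the plot of levels by array, the KO preproNK points of S1pr1 nearly coincide.

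**Figure D1:**
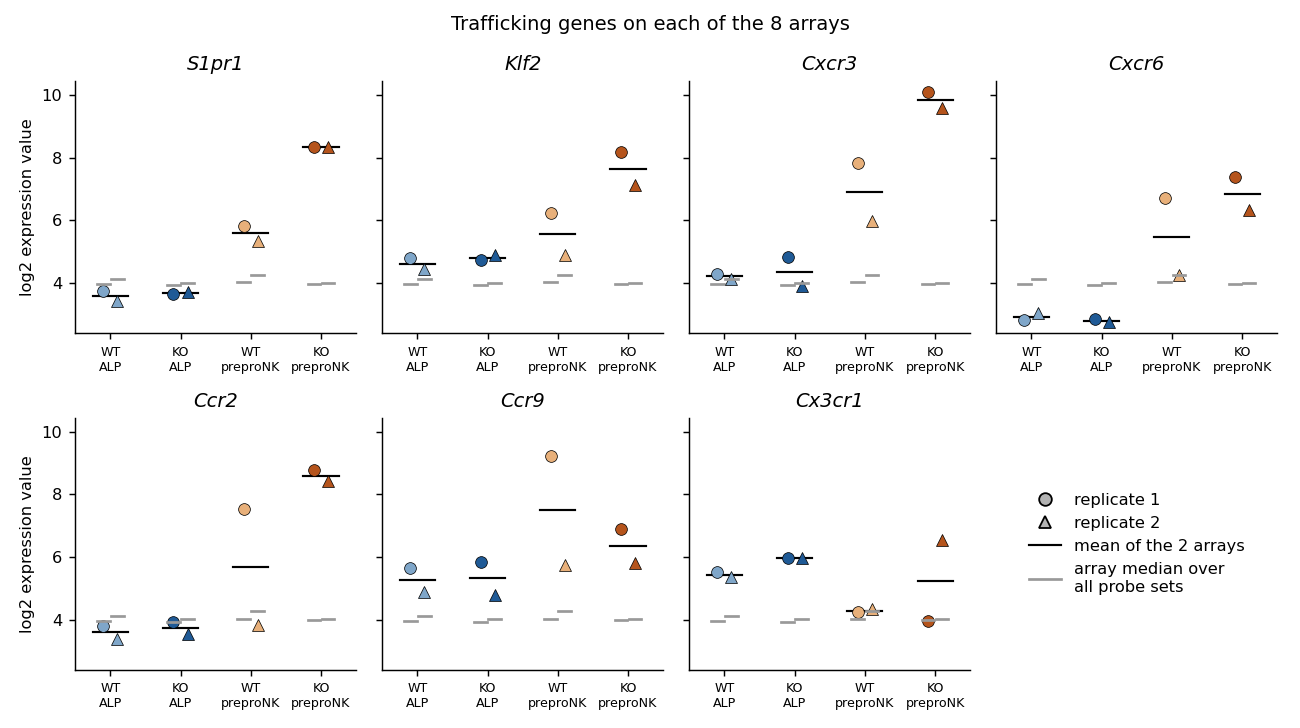
Log2 expression value (vertical axis) of the 7 measured trafficking genes on each array, with circles for replicate 1, triangles for replicate 2, black lines for the group mean and grey lines for the median of each array. S1pr1, Klf2, Cxcr3 and Ccr2 are higher on both KO preproNK arrays than on both WT preproNK arrays, while Ccr9 is highest on WT preproNK replicate 1 and Cx3cr1 on KO preproNK replicate 2.

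In preproNK the KO minus WT difference of S1pr1 was 2.76 (SE 0.36, n = 2 a group), a 6.76-fold higher level in KO, with 2.52 and 2.99 in the replicate 1 and 2 pairs. By limma over all genes its unadjusted p was 6.42e-05 and its adjusted p 0.16. With the replicate as a block the adjusted p was 0.0457, so the call depended on that term. Without WT preproNK replicate 2 the difference was 2.51 (adjusted p 0.175, and 0.0303 with the block), so it did not rest on the array that stood apart.

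In ALP, S1pr1 differed by 0.09 between the genotypes (95% interval -0.74 to 0.92), at levels near background. The test of whether the knockout difference was larger in preproNK than in ALP, the interaction, gave 2.67 (95% interval 1.50 to 3.84, unadjusted p 0.000803, adjusted p 1.00). From ALP to preproNK the difference was 2.01 in WT (adjusted p 0.146, with the block 0.0466, and 2.25 with adjusted p 0.0312 without WT preproNK replicate 2), at least 2.90-fold once ALP values were raised to the array median. In KO it was 4.68 (adjusted p 0.00314), at least 20.7-fold, and averaged over both genotypes it was 3.34 (SE 0.25, adjusted p 0.00135).

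Klf2, the regulator of exit from tissues, was above the array median on all 8 arrays. It measured 4.79 and 4.44 in WT ALP, 4.73 and 4.89 in KO ALP, 6.25 and 4.89 in WT preproNK, and 8.19 and 7.12 in KO preproNK. The KO preproNK arrays were above the other 6, and WT preproNK replicate 2 was at the level of ALP.

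The KO minus WT difference of Klf2 in preproNK was 2.09 (SE 0.55), 4.25-fold, and was alike in the pairs at 1.94 and 2.23. It did not pass the test in limma (unadjusted p 0.00569, adjusted p 0.61, with the block 0.154). In ALP the difference was 0.19 (95% interval -1.09 to 1.48), and the interaction was 1.89 (0.08 to 3.71, adjusted p 1.00). Without WT preproNK replicate 2 the KO minus WT difference was 1.41.

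Between the populations Klf2 differed by 0.95 in WT (adjusted p 0.85, and 1.63 with adjusted p 0.248 without WT preproNK replicate 2) and by 2.85 in KO (adjusted p 0.0527, with the block 0.0122). Averaged over both genotypes it rose by 1.90 from ALP to preproNK (SE 0.39, adjusted p 0.0443). Klf2 and S1pr1 thus had their highest values on the same pair of arrays, but Klf2 was measured in ALP where S1pr1 was near background.

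Cxcr3, on chromosome X, measured 4.30 and 4.12 in WT ALP, 4.82 and 3.91 in KO ALP, 7.82 and 5.99 in WT preproNK, and 10.09 and 9.59 in KO preproNK. All 4 preproNK arrays were above all 4 ALP arrays, and both KO preproNK arrays were above both WT preproNK arrays. The KO minus WT difference in preproNK was 2.93 (SE 0.63), 7.63-fold, with 2.26 and 3.60 in the pairs (limma, unadjusted p 0.00167, adjusted p 0.372, with the block 0.0713). Without WT preproNK replicate 2 it was 2.02. In ALP the genotypes differed by 0.16 (95% interval -1.29 to 1.61), and the interaction was 2.78 (95% interval 0.73 to 4.82, adjusted p 1.00).

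The step from ALP to preproNK in Cxcr3 was 5.48 in KO (adjusted p 0.00851) and 4.09 averaged over the genotypes (SE 0.44, adjusted p 0.00468). In WT it was 2.70 (adjusted p 0.247, with the block 0.0466), and 3.62 (adjusted p 0.0144) without WT preproNK replicate 2. Tbx21, which acts on Cxcr3 in T and NK cells, measured 5.67 and 5.42 in WT preproNK and 7.84 and 8.82 in KO preproNK. The difference was 2.78 (SE 0.44, limma adjusted p 0.188, with the block 0.0596), with 2.16 in the replicate 1 pair. The part of Tbx21 in the Cxcr3 values was not tested.

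Cxcr6, a receptor of tissue-resident and innate lymphocytes, measured 2.80 and 3.05 in WT ALP, 2.83 and 2.76 in KO ALP, 6.72 and 4.24 in WT preproNK, and 7.38 and 6.34 in KO preproNK. It was below the array median in ALP and on WT preproNK replicate 2. The preproNK groups overlapped, since the higher WT array exceeded the lower KO array.

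The KO minus WT difference of Cxcr6 in preproNK was 1.38 (SE 0.76, adjusted p 0.613), with 0.66 and 2.10 in the pairs and 0.14 without WT preproNK replicate 2. In ALP it was -0.13 (95% interval -1.88 to 1.63), with both groups near background. The step from ALP to preproNK was 4.06 in KO (adjusted p 0.0453), at least 7.39-fold, and 3.31 averaged over the genotypes (SE 0.54, adjusted p 0.0197). In WT it was 2.55 (adjusted p 0.363), and 3.80 (adjusted p 0.0131) without WT preproNK replicate 2. The second probe set of Cxcr6 gave 1.62 for KO minus WT in preproNK and 3.47 for the step in KO.

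Ccr2 measured 3.81 and 3.37 in WT ALP, 3.94 and 3.55 in KO ALP, 7.55 and 3.84 in WT preproNK, and 8.79 and 8.42 in KO preproNK. The WT preproNK arrays lay far apart, replicate 2 at the level of ALP and replicate 1 nearer to the knockouts. KO minus WT in preproNK was 2.91 (SE 1.01, unadjusted p 0.0208, adjusted p 0.613), but 1.24 and 4.58 in the pairs. Without WT preproNK replicate 2 it was 1.06, and without WT preproNK replicate 1 it was 4.76, so the size of the difference turned on which WT array was used.

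In ALP, where Ccr2 was above the array median on 1 of the 4 arrays, the genotypes differed by 0.16 (95% interval -2.18 to 2.49). The step from ALP to preproNK was 4.86 in KO (adjusted p 0.0679, with the block 0.0160) and 3.48 averaged over the genotypes (SE 0.71, adjusted p 0.0436). In WT it was 2.11 (adjusted p 0.734), and 3.96 (adjusted p 0.00602) without WT preproNK replicate 2. The 3 other probe sets of Ccr2 gave 2.06, 0.52 and 2.58 for KO minus WT in preproNK and 4.51, 1.92 and 4.12 for the step in KO, the same directions in smaller sizes.

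Ccr9 had its highest value on a wild-type preproNK array. It measured 5.67 and 4.89 in WT ALP, 5.84 and 4.79 in KO ALP, 9.23 and 5.76 in WT preproNK, and 6.91 and 5.81 in KO preproNK. In all 4 groups the replicate 1 array was the higher one. KO minus WT in preproNK was -1.14 (SE 1.03, adjusted p 0.631), from -2.32 and 0.05 in the pairs.

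Leaving out WT preproNK replicate 1 turned the sign of the Ccr9 difference to 0.60, and leaving out replicate 2 made it -2.87 (adjusted p 0.37). With the block as well as without WT preproNK replicate 2, it was -2.38 (adjusted p 0.0381). The other probe sets of Ccr9 gave -0.82, -1.25 and -1.40, and of these the first had pairs of opposite sign (-2.79 and 1.15). The second had pairs that were alike (-1.25 and -1.24), with 6.61 and 6.64 in WT preproNK and 5.36 and 5.39 in KO preproNK. The third had -2.73 and -0.08. Between ALP and preproNK, Ccr9 differed by 2.21 in WT (adjusted p 0.72, and 3.95 with adjusted p 0.0295 without WT preproNK replicate 2) and by 1.04 in KO (adjusted p 1.00).

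Markers of type 2 innate lymphoid cells and their precursors, taken as a list, also had their highest mean on WT preproNK replicate 1. Their mean log2 value over 7 measured markers was 8.48 there, 5.87 on WT preproNK replicate 2, 7.61 and 7.24 in KO preproNK, and 3.67 to 4.54 on the ALP arrays. Arg1 measured 8.81 on that array against 6.74, 5.07 and 5.87 on the other preproNK arrays, and Gata3 7.79 against 4.46, 6.27 and 5.67. Zbtb16 and Bcl11b were not highest there, at 6.35 and 8.69 against 7.29 and 8.82 on KO preproNK replicate 1. From ALP to preproNK 4 of the 7 rose on average over the genotypes and 2 in KO, none was called in WT or between genotypes, and their part in the Ccr9 values was not tested.

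**Figure D2:**
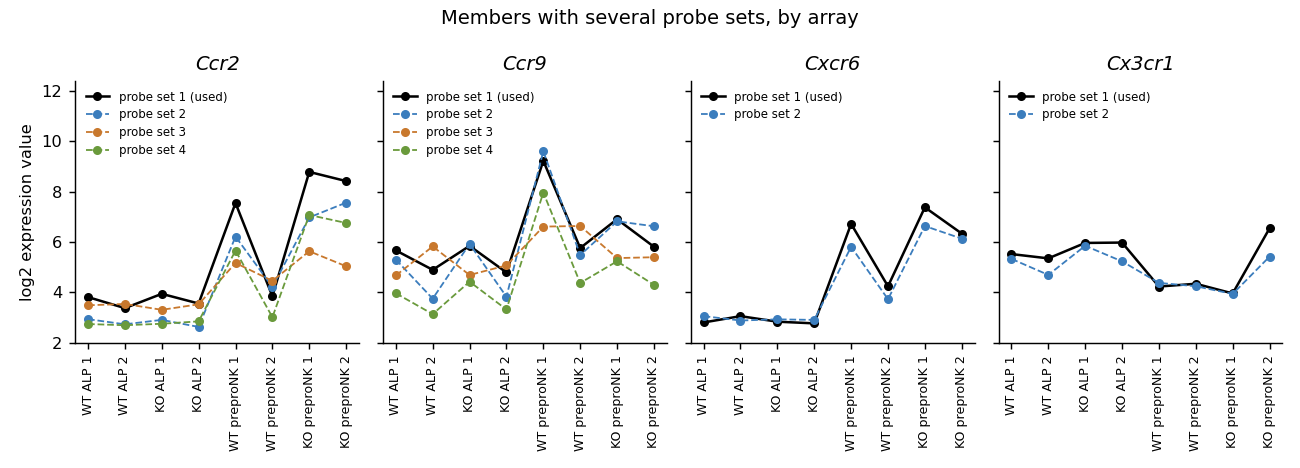
Log2 expression value of every single-symbol probe set of Ccr2, Ccr9, Cxcr6 and Cx3cr1 on the 8 arrays, with the probe set used for the gene in solid black and the others dashed. Every set of Ccr2 and Cxcr6 is higher on the KO preproNK arrays than on the ALP arrays, 3 of the 4 sets of Ccr9 peak on WT preproNK replicate 1, and the 2 sets of Cx3cr1 peak on different arrays.

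Cx3cr1, which marks monocytes and mature NK cells, ran the other way for most arrays. It measured 5.52 and 5.35 in WT ALP, 5.96 and 5.98 in KO ALP, 4.23 and 4.34 in WT preproNK, and 3.95 and 6.54 in KO preproNK. By this probe set, 3 preproNK arrays were lower than every ALP array, and KO preproNK replicate 2 was higher than all others. KO minus WT in preproNK was 0.96 (SE 0.73, adjusted p 0.613), from -0.28 and 2.20 in the pairs, and it was -0.33 without KO preproNK replicate 2 and 1.02 without WT preproNK replicate 2. The other probe set of Cx3cr1 gave 0.37, and on KO preproNK replicate 2 it measured 5.42, below its 5.85 on KO ALP replicate 1.

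The array with high Cx3cr1 also had higher list means of monocyte and dendritic cell genes than the other preproNK arrays. Over 10 measured monocyte and macrophage markers the mean log2 value was 6.06 on KO preproNK replicate 2 and at most 5.10 on the other preproNK arrays. Over 10 dendritic cell markers it was 5.91 against 4.70 to 5.28, and 6.26 to 6.73 on the ALP arrays. Among them, Lyz2 was 9.47 against 8.20 on KO preproNK replicate 1, Cybb 7.83 against 5.18, and Cd74 8.10 against 5.49, whereas Cd14 was below the array median on all 8 arrays and Adgre1 on all but WT preproNK replicate 2. On KO preproNK replicate 2, Irf8, H2-Aa, H2-Ab1 and Zbtb46 were also highest among the preproNK arrays. Tcf4, Itgax, Batf3, Cd209d and Flt3 were not. No monocyte marker of the 8 tested was called in a comparison. Of 9 dendritic cell markers tested, 3 fell from ALP to preproNK on average over the genotypes, 2 in KO and 1 in WT. Between genotypes 0 were called, and the part of these cells in the Cx3cr1 value was not tested. In ALP the genotypes did not overlap in Cx3cr1, with KO above WT by 0.54 (95% interval -1.16 to 2.23), as 16.1% of all tested genes did not overlap there in one or the other direction.

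Across the 7 measured genes, the knockout difference in preproNK passed the adjusted test for none, and the same held for all 11583 tested genes (0 called, 0%, by limma, against 625 at an unadjusted p under 0.05). At an unadjusted p under 0.05, 4 of the 7 were higher in KO, namely S1pr1, Cxcr3, Klf2 and Ccr2, against 4.51% of all tested genes. For the same 4 genes both KO arrays were above both WT arrays, against 22.7% of all tested genes. With the replicate block, S1pr1 alone of the 7 was called, among 10 genes in all (0.0863%). Without WT preproNK replicate 1, 5 of the 7 were called (Ccr2, Cxcr3, Cxcr6, Klf2 and S1pr1), but so were 21.9% of all genes, and without WT preproNK replicate 2 none was called. The median difference of the 7 was 2.09 and that of all tested genes 0.15, with 0.0083 and 0.29 in the pairs.

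**Figure D3:**
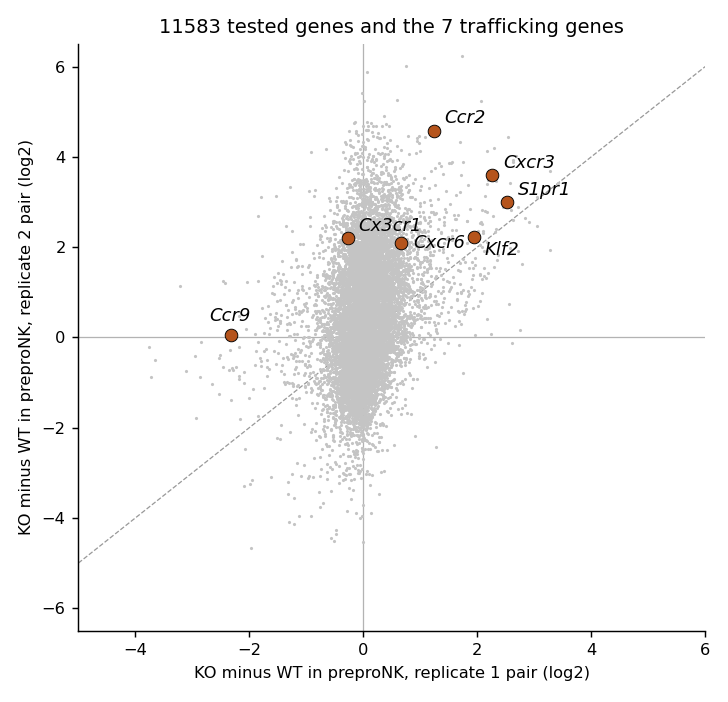
KO minus WT difference in preproNK (log2) in the replicate 1 pair (horizontal axis) and the replicate 2 pair (vertical axis) for all 11583 tested genes in grey and the 7 trafficking genes in orange, with a dashed line of equality. The replicate 2 pair spreads wider over all genes. S1pr1 (2.52 and 2.99) and Klf2 (1.94 and 2.23) lie near the line, Ccr2 (1.24 and 4.58) lies far above it, and Ccr9 and Cx3cr1 have pairs of opposite sign.

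In ALP no member and no tested gene was called between genotypes (0%, limma), no member and 5 genes reached an unadjusted p under 0.05, and with the block 0 genes were called. The 7 differences lay between -0.13 and 0.54. For the interaction no gene was called either (0%), with or without the block. At an unadjusted p under 0.05 it held 183 genes, 3 of the 7 members among them (S1pr1, Cxcr3 and Klf2). A larger knockout difference in preproNK than in ALP was therefore not called for any member.

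From ALP to preproNK in KO, 3 of the 7 rose, S1pr1, Cxcr3 and Cxcr6, against 1.22% of all tested genes (141). With the block there were 5, adding Ccr2 and Klf2, against 2.59% of genes. S1pr1 and Cxcr6 were below the array median on all ALP arrays and passed the filter through their preproNK values. The shares over all tested genes are therefore not a like background for these genes. The calls rested on 4 arrays: without any one KO ALP or KO preproNK array 0 of the 7 were called, and at most 2 genes in all. Without either WT preproNK array more of the 7 were called in that comparison, as were more genes in all. In WT none of the 7 was called (limma), against 0.0345% of genes higher in preproNK. There 3 of the 7 reached an unadjusted p under 0.05, as did 852 of all 11583 tested genes. With the block S1pr1 and Cxcr3 were called there, against 0.268%, and without WT preproNK replicate 2 there were 5, Ccr2, Ccr9, Cxcr3, Cxcr6 and S1pr1, against 136 higher genes in all.

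Averaged over both genotypes, 5 of the 7 rose from ALP to preproNK (Ccr2, Cxcr3, Cxcr6, Klf2 and S1pr1), against 1.77% of all tested genes (205). Fewer members, and fewer genes in all, were called without any one of the WT ALP, KO ALP or KO preproNK arrays. More members, and more genes in all, were called without WT preproNK replicate 2. S1pr1, Ccr2 and Cxcr6 entered the test through their preproNK values, being at or below the array median on nearly all ALP arrays. The median step of the 7 was 3.31 and that of all tested genes -0.0084.

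**Figure D4:**
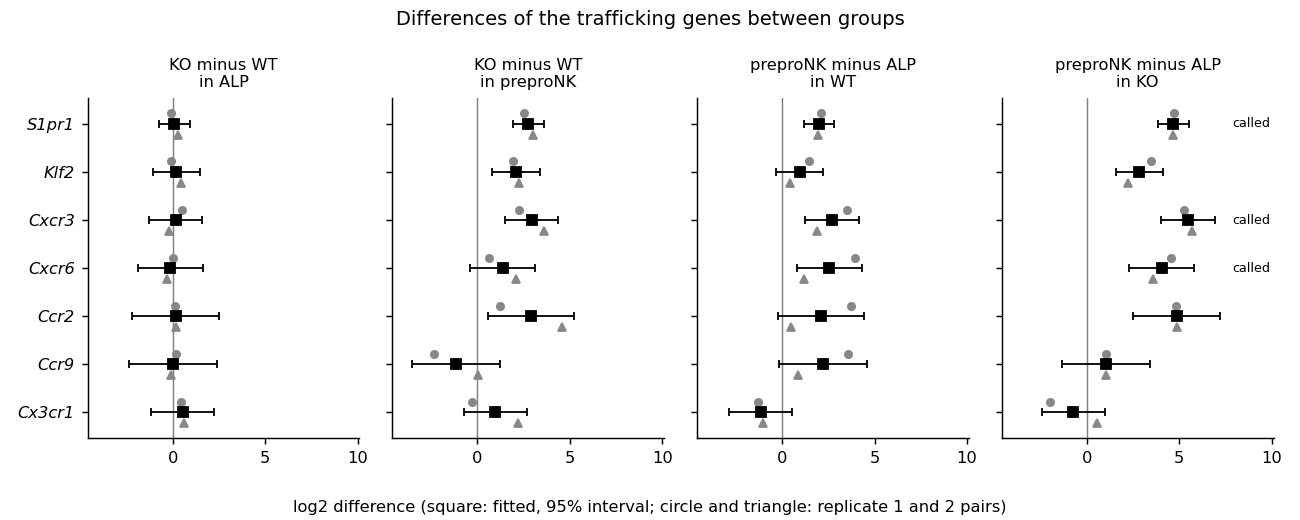
Fitted log2 differences (squares) with 95% intervals for the 7 trafficking genes in 4 comparisons, with grey circles and triangles for the replicate 1 and replicate 2 pairs. Genes marked called passed the adjusted test, which only S1pr1, Cxcr3 and Cxcr6 did and only for preproNK minus ALP in KO, while all 7 intervals for KO minus WT in ALP include 0.

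T cell markers and NK markers, taken as list means, had the same order of groups as S1pr1, Cxcr3, Klf2, Ccr2 and Cxcr6. The mean log2 value of 14 T cell markers was 4.58 to 4.81 on the ALP arrays, 6.93 and 5.86 in WT preproNK, and 8.50 and 8.12 in KO preproNK. Cd3e and Cd3g, parts of the T cell receptor complex, were near background in ALP and above the array median on all preproNK arrays, Cd3e at 8.48 and 6.59 in WT and 9.99 and 10.45 in KO. From ALP to preproNK in KO, 11 of the 14 rose (limma), and 1 did in WT. Between genotypes in preproNK 0 were called, 2 with the block, and their median difference was 1.98, with 1.61 in the replicate 1 pair. Of the 14, 13 were higher in KO, and Cd8a was not (mean 6.10 in WT preproNK and 5.78 in KO preproNK). The mean log2 value of 13 NK markers was 4.55 to 4.74 on the ALP arrays. In preproNK it was 5.65 and 5.24 in WT, and 6.69 and 6.61 in KO. Of 12 tested NK markers, 10 were higher in KO than in WT preproNK, as were 57.1% of all tested genes. Their median difference was 1.43, with 1.51 in the replicate 1 pair, and 0 were called. From ALP to preproNK in KO, 5 of the 12 rose and, with the block, 1 fell, Cd244a (-2.00, adjusted p 0.0461, without the block 0.0937). The part of T or NK lineage cells in the trafficking values was not tested, and in bulk samples a change in the mix of cells and a change in RNA per cell cannot be told apart.

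Ccr9, Cxcr6 and Ccr2 lie near each other on chromosome 9. Ccr9 is 39.3 kb from Cxcr6, and Cxcr6 is 296 kb from Ccr2. Fyco1, which comes between Ccr9 and Cxcr6 when the genes are ordered by start coordinate alone, was also tested. The step from ALP to preproNK averaged over the genotypes was 1.63 for Ccr9 (adjusted p 0.37), 0.53 for Fyco1 (adjusted p 0.756), 3.31 for Cxcr6 and 3.48 for Ccr2, and these differences between neighbours were not tested. KO minus WT in preproNK likewise ran from -1.14 for Ccr9 and 0.41 for Fyco1 to 1.38 for Cxcr6 and 2.91 for Ccr2.

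Among the other 17 chemokine receptors listed, 7 were tested, and 2 rose from ALP to preproNK in KO and on average over the genotypes, Ccr6 and Ccr4. Ccr6, the receptor of Ccl20, measured 3.59 and 3.50 in WT ALP, 3.27 and 3.57 in KO ALP, 7.12 and 4.85 in WT preproNK, and 9.66 and 9.29 in KO preproNK. It had the same order of groups as S1pr1, Cxcr3, Klf2, Ccr2 and Cxcr6. The step of Ccr6 in KO was 6.05 (SE 0.67, adjusted p 0.00851). Its KO minus WT difference in preproNK was 3.49 (adjusted p 0.308), with 2.53 in the replicate 1 pair. Ccr4, which binds Ccl17 and Ccl22, had a step in KO of 3.24 (adjusted p 0.0233) and a KO minus WT difference of 2.29 (adjusted p 0.372), with 2.05 in that pair. Ccr8, like Ccr9, had its highest value on WT preproNK replicate 1 and measured 6.70 and 3.05 in WT preproNK and 4.52 and 3.52 in KO preproNK. The type 2 innate lymphoid markers had their highest list mean on the same array, and their part in the Ccr8 values was not tested either.

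Of 13 other genes of S1P sensing, synthesis, export and breakdown, 8 were tested, and none was called between the genotypes. Averaged over the genotypes, 2 fell from ALP to preproNK: the S1P exporter Spns2 by 1.67 on the log2 scale (SE 0.33, adjusted p 0.0397) and the receptor S1pr3 by 1.60 (SE 0.32, adjusted p 0.0431). S1pr4, a receptor found on blood cells, measured 8.10 and 6.34 in WT preproNK and 8.59 and 8.28 in KO preproNK, a difference of 1.21 (adjusted p 0.613) that was 0.49 in the replicate 1 pair. S1pr5, the receptor known for the exit of mature NK cells, did not pass the filter and lay between 3.49 and 4.02 on the 8 arrays.

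**Figure D5:**
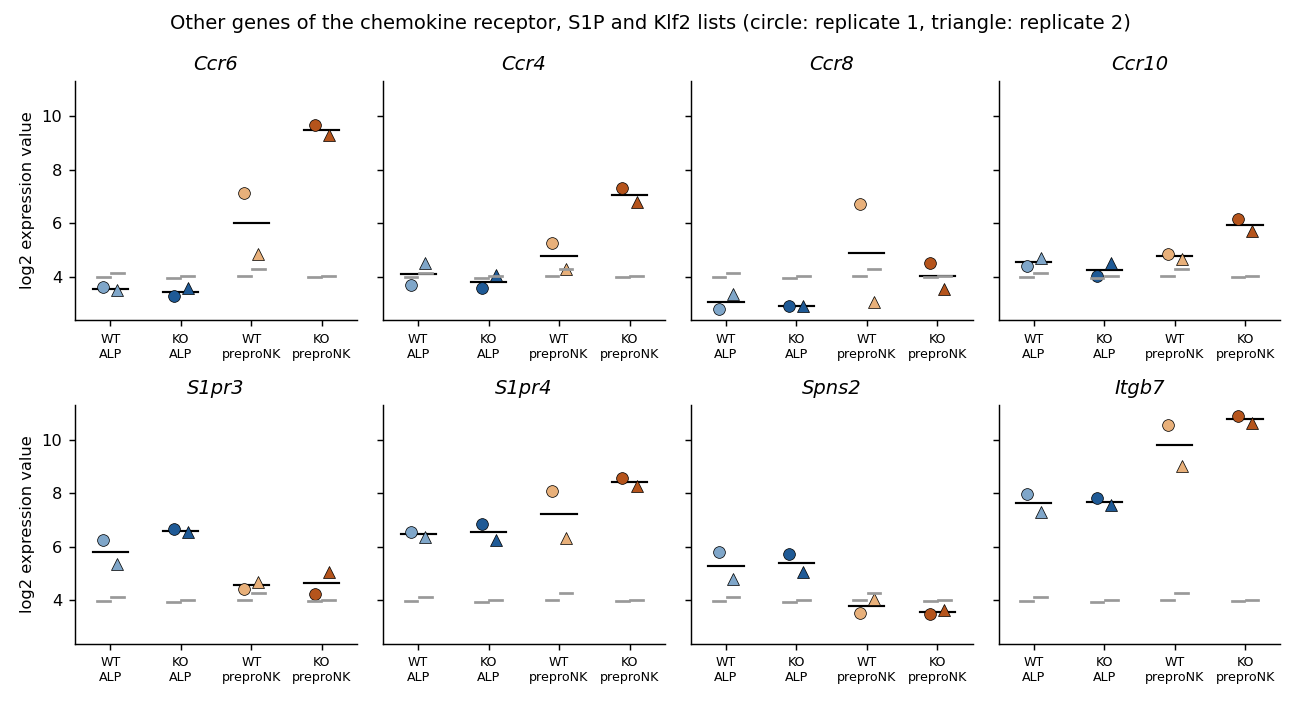
Log2 expression value on each array of 8 genes of the chemokine receptor, S1P and Klf2 lists that are not among the 7, drawn as in the plot of levels by array (circles for replicate 1, triangles for replicate 2, black for group means, grey for array medians). Ccr6 and Ccr4 are highest on the KO preproNK arrays, S1pr3 and Spns2 are highest in ALP, and Ccr8 is highest on WT preproNK replicate 1.

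Of 12 other genes upstream or downstream of Klf2, 11 were tested, and none was called between the genotypes. From ALP to preproNK in KO, 1 rose and 1 fell. Itgb7, the beta 7 integrin that Klf2 is known to influence in T cells, rose by 3.08 (SE 0.54, adjusted p 0.0383), from 7.82 and 7.57 to 10.91 and 10.64. Mef2c, one of the MEF2 factors and also in the list of early lymphoid progenitor markers, fell by 2.57 (SE 0.47, adjusted p 0.0422), from 7.22 and 6.71 to 4.31 and 4.47. The KO means of Mef2a (6.71 to 6.65) and Mef2d (8.45 to 8.22) changed less. Klf2 went the other way on the same arrays, by a step that was not called (limma, adjusted p 0.0527). A link between Mef2c and Klf2 was not tested. Mapk7 lay between 5.69 and 6.61 on all 8 arrays. Cd69, whose protein removes S1pr1 from the cell surface, measured 2.77 and 2.39 in WT preproNK and 3.29 and 2.96 in KO preproNK, all below the array median.

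Of 26 genes that act behind chemokine receptors, 23 were tested, and none was called between the genotypes. In preproNK 19 of the 23 had a positive KO minus WT difference, as did 57.1% of all tested genes, with a median of 1.01 that was 0.27 and 1.81 in the pairs. Averaged over the genotypes 2 rose from ALP to preproNK, Rgs14, a brake on G protein signalling, by 1.32 (adjusted p 0.0431), and Pik3r5, a regulator of the PI3K that G proteins activate, by 1.32 (adjusted p 0.0333). Of 24 chemokine ligands 15 were tested and 1 rose, Ccl5, a ligand made by T and NK cells, by 4.38 in KO (SE 0.42, adjusted p 0.00569). The ligands of the members, Cxcl9, Cxcl10, Cxcl16, Ccl2, Ccl25 and Cx3cl1, lay between 2.75 and 5.74 in these sorted cells.

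The 5 tested genes whose pattern over the 8 arrays was most like that of S1pr1, by the root mean square (RMS) difference of log2 values after each gene's own mean was taken off, were Sit1 (0.265), Nhsl2 (0.275), Ccl5 (0.306), Il2rb (0.374) and Klrk1 (0.382). Among the members, Cxcr3 came at rank 22, Cxcr6 at 59, Ccr2 at 76 and Klf2 at 81, and Ccr9 and Cx3cr1 at 2713 and 10637. For Klf2 the nearest were Zap70 (0.195), Prrt2 (0.227), Rnase4 (0.290), Edaradd (0.321) and Plekhf1 (0.329), with Cxcr6 at rank 530 and S1pr1 at 563. Zap70, the kinase of T cell receptor signalling, measured 5.68 and 4.56 in WT preproNK and 7.24 and 6.38 in KO preproNK, so like Klf2 it was low on WT preproNK replicate 2. These distances describe the 8 arrays and share their preparation and their spread.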

How the data were processed

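RNA of 8 sorted samples, 2 in each of 4 groups, was extracted with magnetic beads, amplified for 23 cycles and hybridised after biotin labelling, per the labels' protocols. Amplification can add spread between arrays. Each probe set has a deposited log2 value. The submitters' processing notes name RMA and Partek as the authors' tools, and their settings are not given in the sources used. The log2 scale was read from the values, and arrays carry no read depth, so precision rests on how many there are.

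Of 45141 probe sets, the platform annotation gave 28898 a single gene symbol, 551 several and 15692 none listed. A gene was represented by its single-symbol probe set with the highest mean, and was tested if it exceeded the array median on 2 or more arrays. Means of the 4 groups were fitted to all 8 arrays with limma 3.58.1 in R 4.3.3 (lmFit and eBayes, 4 residual degrees of freedom), two-sided, with Benjamini-Hochberg adjustment over all 11583 tested genes and calls at an adjusted p under 0.05. The script was tested on simulated data. Folds raise dim values to the array median first, a floor chosen with the values seen, while log2 differences are as fitted. Sequences came from RefSeq, GRCm38.p6.

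The series design ties each replicate number to a processing date, which pairs the samples. After subtraction of group means, replicate 1 arrays of different groups correlated at 0.149 to 0.807 over genes. The sex-linked gene Xist was high on 3 of the 4 replicate 2 arrays, all but WT preproNK, at 7.94, 9.30 and 8.78. It was 3.10 to 3.56 on the replicate 1 arrays. The block cannot tell the sex of the mice apart from date. Eif2s3y, on chromosome Y, measured 6.60 to 7.04 on the replicate 1 arrays and 4.19 to 5.22 on the replicate 2 arrays. WT preproNK replicate 2 was low in both, with Xist at 4.20 against 8.78 on KO preproNK replicate 2. That difference lies within the replicate 2 pair, where the block does not remove it, and its part in the values was not tested.

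Members and gene lists were chosen with earlier results of these data known. The rule for named genes takes all members with all their probe sets, Nfil3, per list and comparison up to 4 called genes or else up to 2 with the smallest p, and the 5 genes most like S1pr1 and Klf2, shortened from the end. Marker genes and S1pr5, Cd69, Tbx21 and Fyco1 stand outside it and were chosen with their values seen. Alternatives were the replicate block, no filter on dim genes, a further quantile normalization, the median of a gene's probe sets, array weights, a trended and robust variance prior, only the 4 arrays of a comparison, and leaving out each array.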

Additional observations from a re-analysis of the deposited data

How the results depend on the processing

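With 2 arrays a group, whether a member passed the test depended on settings more than its sign did. KO minus WT in ALP and the interaction had 0 members called under every alternative run. Shares in brackets are of all genes tested in that setting, called in either direction. For KO minus WT in preproNK, where none was called (0%), 1 member was called with the replicate block (0.0863%). For preproNK minus ALP in WT, none was called in the main fit (0.095%). The counts there were 2 with the replicate block (0.578%) and 1 after a further quantile normalization (0.604%). For preproNK minus ALP in KO, where 3 were called (1.75%), the count was 5 in several settings. These were the replicate block (3.88%), the median of a gene's probe sets (1.96%), array weights (7.79%) and only the 4 arrays of the comparison (10.7%). For the mean over both genotypes, where 5 were called (3.38%), it was 3 without the filter on dim genes (1.73%). Counts of members, and of all genes called, also moved when single arrays were left out, with or without the block. The cause of these shifts was not tested. Where an array is left out, the lone array of its group is assumed to vary like the others, and array weights came out equal within each group.

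Over single members and comparisons, excluding left-out arrays, 260 values kept their sign and side of the threshold, 13 newly passed it, 6 no longer did and 1 reversed, Ccr9 for KO minus WT in ALP at -0.0452 after a further quantile normalization. With an array left out 11 reversed. For KO minus WT in preproNK, Ccr9 ran from -2.87 to 0.60 and Cx3cr1 from -0.33 to 2.26. For KO minus WT in ALP, S1pr1 ran from -0.070 to 0.25, Ccr2 from -0.063 to 0.38, Ccr9 from -0.49 to 0.57 and Cxcr3 from -0.30 to 0.61. The interaction ran from -2.91 to 0.56 for Ccr9 and from -0.87 to 1.72 for Cx3cr1, and preproNK minus ALP in KO from -2.02 to 0.57 for Cx3cr1. The fit with only 4 arrays has no value for the interaction or the mean.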
